A study of Mus musculus with 6 samples.

Results

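Macrophages and other myeloid cells of the glomerulus were followed through 34 marker genes, and none of these genes differed between dendrin knockout and control glomeruli by more than the spread between mice. The genes were chosen as known markers of myeloid cells, with earlier results of these data known. They are 34 of the 18194 genes that a probe set of the array names alone. All 34 had at least 1 such probe set, and each gene was represented by the probe set with the highest mean over the 6 arrays. Glomeruli were isolated from 3 dendrin knockout mice and 3 wild type littermate controls, with 1 Affymetrix array per mouse. All were 13 months old and of 129S6SvEv/C57BL6 origin. The knockout allele replaces the whole coding sequence of dendrin in every cell of the animal with a cassette that encodes eGFP and a neomycin resistance gene. The methods describe mice raised from a targeted ES line of 129S6SvEv/C57BL6 and backcrossed over several generations onto C57BL/6. Dendrin itself (Ddn) was at 3.80, 3.81 and 3.80 in knockout mice 1 to 3 and at 12.22, 12.81 and 12.31 in control mice 1 to 3. These and all levels below are GCRMA values, the background-corrected and normalized probe set signals on the log2 scale, and since each probe set binds with its own strength, levels are compared between mice and not between genes.

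Macrophages are phagocytes that live in nearly every organ, and in the kidney they lie mostly between the tubules, with few in the glomerular tuft itself. Their identity rests on the transcription factor PU.1, the product of Spi1, and their survival on the receptor Csf1r with its ligands Csf1 and Il34. Those of the kidney take up debris through scavenger and Fc receptors and present peptides on class II molecules of the major histocompatibility complex (MHC), whereas monocytes that arrive from blood carry Ccr2. In whole glomeruli, fewer cells of a type and less RNA per cell cannot be told apart.

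The MHC class II genes are the members whose shared control is best known, and the sequence upstream of them is shown for this reason. The factor NF-Y binds the Y box of class II promoters, and the coactivator Ciita acts on the factors gathered there. H2-Ab1 (chr17:34263227-34269418), H2-Aa (chr17:34282744-34287823) and H2-Eb1 (chr17:34305867-34316674) are neighbours on the mouse genome GRCm38.p6. Promoter sequences from RefSeq were matched for 24 of the 34 genes. The 150 bases before the start are printed 5′ to 3′ for H2-Aa (chr17:34287824-34287973, minus strand) and H2-Eb1 (chr17:34305717-34305866, plus strand), with the Y box letters CTGATTGG in capitals and, in H2-Aa, also the cyclic AMP response element TGACGTCA.
H2-Aa: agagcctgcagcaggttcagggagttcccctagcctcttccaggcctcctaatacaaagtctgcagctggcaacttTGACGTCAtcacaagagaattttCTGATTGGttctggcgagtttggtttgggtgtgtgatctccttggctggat
H2-Eb1: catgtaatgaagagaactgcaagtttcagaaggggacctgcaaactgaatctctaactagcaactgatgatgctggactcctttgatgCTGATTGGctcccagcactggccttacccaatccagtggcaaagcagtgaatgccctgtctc

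The Y box letters lay 51 to 44 bases before the start of H2-Aa and 62 to 55 bases before that of H2-Eb1. Searched on both strands in the 250 bases before the start, CTGATTGG was found in 3.83% of all 32851 promoters and in 3 of the 24 matched genes, H2-Aa, H2-Eb1 and Irf8. The 24 genes have 29 promoters among these and each gene was counted once, so the shares have unlike units. TGACGTCA, which reads the same on both strands, was found in 1.55% of all promoters and in H2-Aa. GAGGAAGT, letters bound by PU.1, was found in 2.44% of all promoters and in 0 of the 24 genes. A match is a description of these letters and no evidence of binding.

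Of the 34 myeloid genes, 32 had a mean of at least log2 4 and are described below. The other 2, the phagocyte receptor genes Trem2 and Cd163, did not vary over the 6 arrays. Trem2 was at 2.204 and Cd163 at 2.203 on each of them, the second being the lowest value in the data. A mean under log2 4 is called dim here. The label of the tissue was borne out by podocyte genes such as Nphs1, which encodes nephrin and was at 12.45 to 12.90 on every array. Ptprc, Csf1r, Spi1, Tyrobp and Fcer1g, taken as defining genes of the list, all had signal on every array. They are members themselves and Ptprc is shared by leukocytes in general, so this does not test the myeloid label. Itgam, another member, had a mean of 4.54, close to the dim level.

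**Figure D1:**
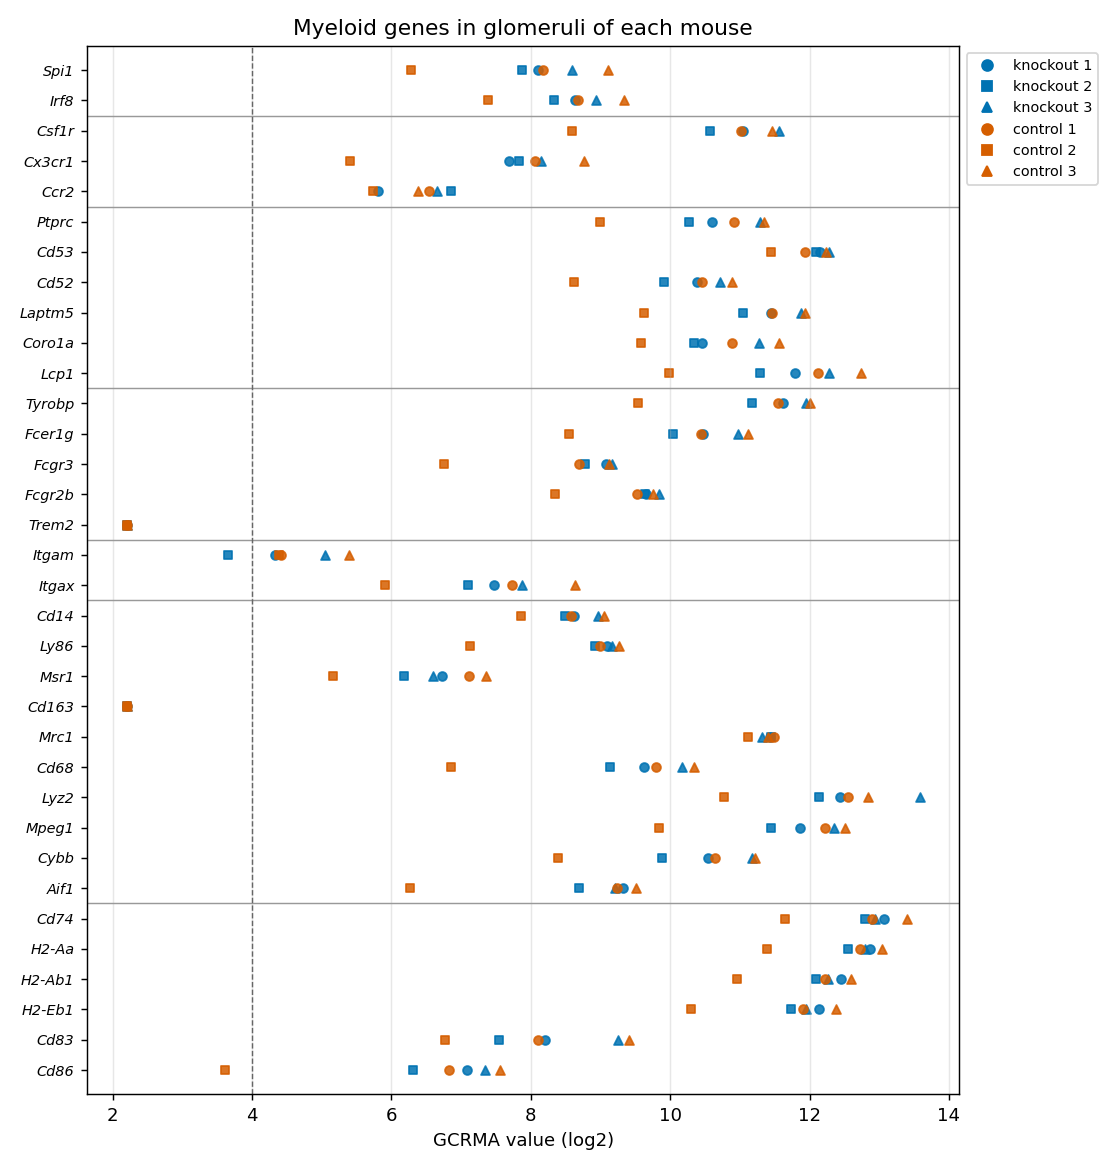
GCRMA value (log2, horizontal axis) of the 34 myeloid genes on each of the 6 arrays, 1 point per mouse, with knockout in blue and control in orange. Horizontal lines part the 7 groups of genes by role and the dashed line marks log2 4. The orange square, control 2, is the lowest point for 31 of the 32 genes that are not dim, and Trem2 (2.204) and Cd163 (2.203) do not vary between mice.

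Knockout and control glomeruli overlapped for each of the 32 genes. Of these genes, 30 had a higher and 2 a lower mean in knockout, with a median difference of 0.35 (log2, knockout minus control). Of the 19619 probe sets on the array above the dim level, 55.1% were higher in knockout and the median difference was 0.02. Knockout and control were fully apart for 0 of the 32 genes, against 13.7% of all probe sets that are not dim. The criterion of a fold over 1.5 and an unadjusted p under 0.05 with limma was passed by 0 of the 32 genes, against 0.18% of all 45101 probe sets. An unadjusted p under 0.05 was reached by 0 of them, against 3.63%, and an adjusted p under 0.05 by 0 of them, against 0.00222%, which is Ddn alone. The smallest unadjusted limma p among the members was 0.248, that of Cd53, and SAM, the test that the methods name, also gave 0 genes past the criterion, 0 at an unadjusted p under 0.05 and 0 at a corrected p under 0.05. The 95% confidence interval of the difference held 0 for all 32 genes. It also held a 1.5-fold rise for 31 of them and a 1.5-fold fall for 30. For these genes the arrays do not exclude a change of this size. The interval of Mrc1 excluded both a rise and a fall of 1.5-fold, and that of Cd53 a fall.

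The control mice spread more widely than the knockout mice, with control 2 far below the others. This array had the lowest value of all 6 arrays for 31 of the 32 genes, and was the lowest for 19.8% of all probe sets that are not dim. Its median value over the 32 genes was 8.47, against 10.45 in control 1, 10.997 in control 3 and 10.42, 9.89 and 10.84 in knockout mice 1 to 3. The SD of the control mice was larger than that of the knockout mice for 30 of the 32 genes (63.5% of all probe sets that are not dim), with a median SD of 1.21 in control and 0.39 in knockout. Of the tubule genes, 4 of 10 of the distal nephron (loop, distal tubule, collecting duct) and 6 of 10 of the proximal tubule were not dim. Their mean log2 level was 10.92 and 8.17 on control 2, against 8.24 to 8.48 and 6.45 to 7.30 on the other arrays. Distal nephron genes were higher on control 2 than the mean of the other 5 by a median of 2.59 and those of the proximal tubule by 1.44, whereas podocyte genes were higher by 0.13 and endothelial genes by 0.03. Whether the amount of tubule in the preparation has a part in the low myeloid values of control 2 was not tested.

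Without control 2 the direction of the list turned. Of the 32 genes, 4 were then higher and 28 lower in knockout than in the mean of controls 1 and 3, with a median difference of -0.28, while 44.9% of all probe sets that are not dim were lower. An unadjusted p under 0.05 was reached by 1 of the 32 genes, against 5.73% of all probe sets, and the fold and p criterion was passed by the same gene, Msr1, against 0.31%. No member reached an adjusted p of 0.05 without control 2 (limma), and 7 probe sets of the whole array did. Neither direction of the list therefore stands apart from the spread between mice, since the first rests on 1 control and the second on the absence of that mouse. Leaving out any other array kept the median above 0, between 0.23 (without knockout 3) and 0.82 (without control 3).

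**Figure D2:**
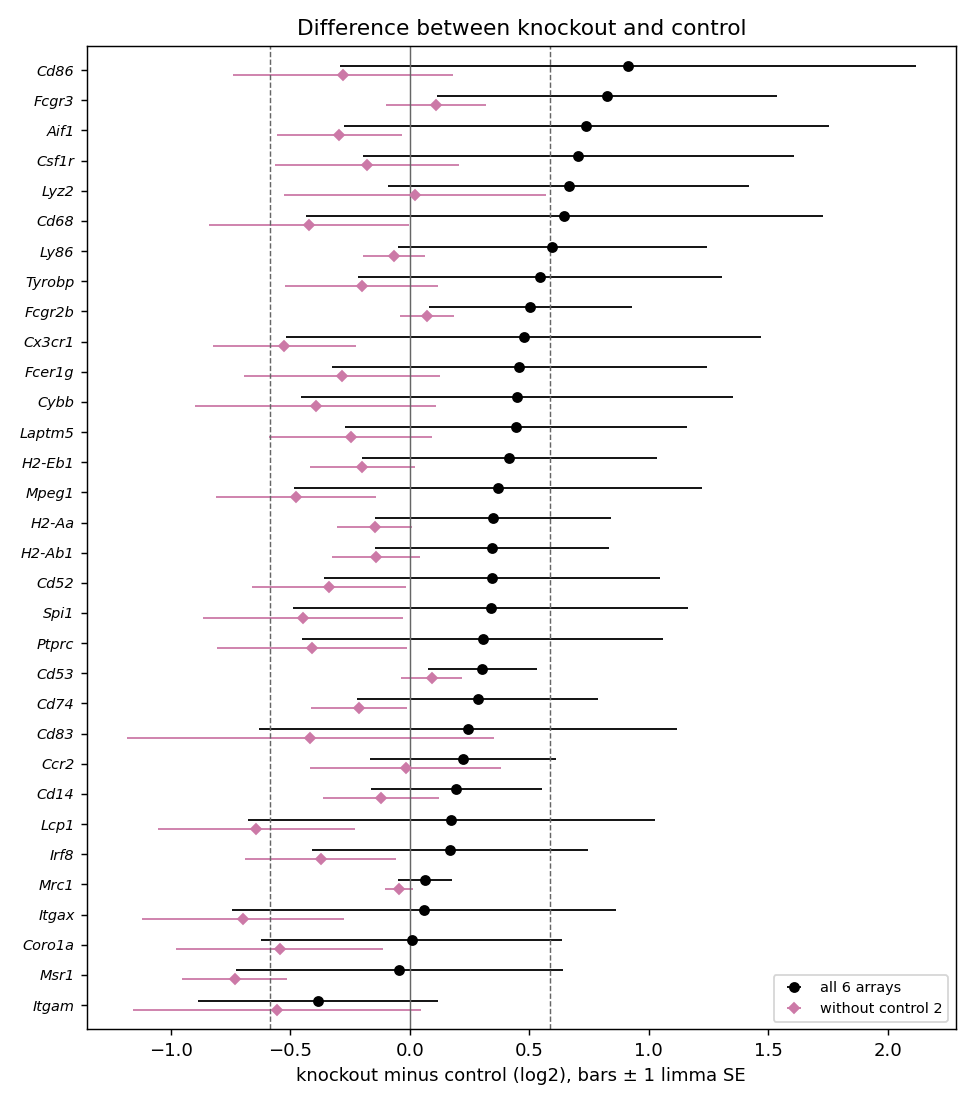
Difference between knockout and control (log2, horizontal axis) for the 32 myeloid genes that are not dim, with bars of 1 limma standard error. Black circles use all 6 arrays and pink diamonds leave out control 2, and dashed lines show where a difference reaches 1.5-fold. All but 2 black circles lie right of 0, and all but 4 pink diamonds lie left of it.

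The myeloid transcription factor genes followed this pattern. Spi1, whose product PU.1 directs the fate of myeloid cells, was at 8.10, 7.88 and 8.59 in the knockout and 6.28 to 9.10 in the control mice, with control 2 lowest and control 3 highest. Its knockout mean was 8.19 ± 0.37 and its control mean 7.85 ± 1.44 (SD, n = 3 each), which is a difference of 0.34 with a limma standard error (SE) of 0.83. Without control 2 it was -0.45 (SE 0.42). Irf8, a factor required for monocytes and some dendritic cells, was at 8.64, 8.33 and 8.93 in knockout and at 8.68, 7.38 and 9.33 in control. Its difference was 0.17 with all arrays and -0.37 without control 2. The ratio of unlogged means, which gives the low array less weight, put both genes slightly lower in knockout (-0.03 and -0.02).

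Among the receptors that keep or attract myeloid cells, Csf1r and Cx3cr1 were far lower on control 2 than elsewhere and Ccr2 much less so. Csf1r, the receptor of the growth factors Csf1 and Il34, was at 11.05, 10.57 and 11.56 in knockout and at 11.01, 8.59 and 11.46 in control. Controls 1 and 3 lay within the range of the knockout mice, and the difference was 0.71 (95% confidence interval -1.73 to 3.14). Its other 2 probe sets gave 0.62 and 0.58. Cx3cr1, the receptor of fractalkine, was at 5.41 on control 2 against 7.69 to 8.76 on the other arrays. Ccr2, the receptor that draws monocytes from blood, was lowest on control 2 (5.74) with knockout 1 close to it (5.81), and it was at 6.37 to 6.86 elsewhere.

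All 6 genes shared by leukocytes in general were lowest on control 2. Ptprc encodes the phosphatase CD45 and was at 10.60, 10.27 and 11.29 in knockout and at 10.91, 8.99 and 11.35 in control, a difference of 0.30 (SE 0.76). Cd52, Laptm5, Coro1a and Lcp1, which encode a surface glycoprotein, a lysosomal membrane protein and 2 actin-binding proteins, had differences of 0.34, 0.44, 0.01 and 0.17, and without control 2 all 4 were below 0 (-0.25 to -0.64). The direction of Coro1a turned when the arrays were quantile normalized again (-0.01). Cd53, a tetraspanin, varied least in this group, with 12.15, 12.09 and 12.28 in knockout and 11.93, 11.45 and 12.23 in control. Its difference of 0.30 (95% confidence interval -0.31 to 0.92) remained above 0 without control 2, at 0.09.

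Tyrobp and Fcer1g encode the adaptors that couple activating receptors of myeloid cells to Syk through an ITAM motif. Tyrobp was at 11.62, 11.17 and 11.95 in knockout and at 11.55, 9.54 and 12.004 in control. Fcer1g was at 10.47, 10.03 and 10.97 in knockout and at 10.44, 8.55 and 11.11 in control. In both genes, knockout 2 was the lowest of the knockout mice, control 2 the lowest of all and control 3 the highest of all. The differences were 0.54 (SE 0.76) and 0.46 (SE 0.78), and -0.20 and -0.29 without control 2. The Fc receptor genes were among the few that did not turn. Fcgr3, an activating receptor for immunoglobulin G, was at 9.08, 8.78 and 9.17 in knockout and at 8.68, 6.75 and 9.12 in control, a difference of 0.83 (SE 0.71), and 0.11 without control 2. Fcgr2b, the inhibitory receptor, was at 9.65, 9.64 and 9.84 in knockout and 9.53, 8.34 and 9.75 in control, with differences of 0.50 and 0.07. A second probe set of Fcgr2b was the only 1 of the 55 member probe sets that are not dim for which the groups did not overlap, with 8.40, 8.49 and 8.51 in knockout and 8.24, 6.89 and 8.33 in control. Over all probe sets that are not dim, 13.7% had no overlap. This probe set was picked for its values. It differed by 0.65 (SE 0.45) (adjusted p = 1 with limma), and for the gene's other 3 probe sets that are not dim the groups overlapped.

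Both integrin genes had their highest value in control 3. Itgax, which encodes CD11c, was at 7.47, 7.10 and 7.87 in knockout and at 7.73, 5.90 and 8.64 in control, a difference of 0.06 with all arrays and of -0.70 without control 2. Itgam, which encodes CD11b, was at 3.66 to 5.05 in knockout and 4.39 to 5.39 in control, close to the dim level. It was the only gene of the 32 whose lowest array was not control 2 but knockout 2, and its difference was -0.38 (SE 0.50).

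The genes of innate recognition, scavenging and killing held some members that were far lower on control 2 than elsewhere, such as Cd68, and 1, Mrc1, that was not. Cd68, a lysosomal glycoprotein of macrophages, was at 9.62, 9.13 and 10.17 in knockout and at 9.79, 6.86 and 10.34 in control. Its value in control 2 was 7.75-fold below the mean of the other 5 arrays. Aif1, a calcium-binding protein of macrophages, was at 9.32, 8.68 and 9.21 in knockout and at 9.23, 6.27 and 9.50 in control, 7.58-fold below the other arrays on control 2. The differences between the groups were 0.65 (SE 1.08) and 0.74 (SE 1.02). Lyz2, which encodes lysozyme, was at 12.43, 12.14 and 13.58 in knockout and at 12.56, 10.77 and 12.83 in control, and its highest value was that of knockout 3. Its difference was 0.66 with all arrays and 0.02 without control 2. Ly86, the partner of an endotoxin receptor relative, was at 9.09, 8.92 and 9.16 in knockout and at 8.99, 7.13 and 9.26 in control, so that the 5 other arrays lay within 8.92 to 9.26. Cd14, the endotoxin coreceptor, Mpeg1, the pore-forming perforin-2, and Cybb, the catalytic subunit of the phagocyte oxidase, differed by 0.19, 0.37 and 0.45, and by -0.12, -0.48 and -0.39 without control 2.

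Msr1 and Mrc1 were both picked for mention after their values were seen. Msr1 was lowest on control 2 like most members, 3.09-fold below the mean of the other arrays. Msr1, the class A scavenger receptor, was at 6.72, 6.18 and 6.60 in knockout and at 7.11, 5.17 and 7.35 in control, a difference of -0.04. Controls 1 and 3 lay above all knockout mice, and without control 2 the difference was -0.73 (SE 0.22) (adjusted p = 0.812 with limma). Of its other 2 probe sets with signal, 1 was at -0.08 and 1 at 0.08 with all arrays, the only disagreement in sign among the 13 members with several probe sets that are not dim. Mrc1, the mannose receptor, was at 11.43, 11.44 and 11.31 in knockout and at 11.49, 11.12 and 11.40 in control. Control 2 was lowest here as well, but by only 1.23-fold against the mean of the other arrays, and the interval of the difference, -0.25 to 0.37, was the only one among the 32 that excluded a 1.5-fold rise.

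Cd74 and the MHC class II genes H2-Aa, H2-Ab1 and H2-Eb1 varied less between mice than most members. The promoters of H2-Aa and H2-Eb1 are shown above. Cd74, the invariant chain that guides class II molecules to the endosome, was at 13.06, 12.80 and 12.93 in knockout and at 12.90, 11.65 and 13.39 in control, a difference of 0.28 (SE 0.50). H2-Aa was at 12.86, 12.55 and 12.79 in knockout and at 12.73, 11.39 and 13.04 in control. H2-Eb1 was at 12.14, 11.73 and 11.95 in knockout and at 11.91, 10.30 and 12.38 in control. In the knockout mice the SD of Cd74, H2-Aa, H2-Ab1 and H2-Eb1 was 0.13 to 0.20, against the median of 0.39 over the list, and on control 2 these genes were 2.58-fold to 3.31-fold below the other arrays. Their differences were 0.28 to 0.42 with all arrays and -0.14 to -0.21 without control 2. Of the costimulatory genes, Cd83 had an SD of 0.86 among knockout mice. Cd86, the ligand of CD28 on T cells, was at 7.09, 6.31 and 7.34 in knockout and at 6.83, 3.61 and 7.55 in control. It had the largest difference of the list, 0.91 (95% confidence interval -2.34 to 4.17), and the largest departure of control 2, 10.7-fold below the mean of the other arrays, but its value there lies under log2 4, where the signal is dim. When 16 was added to each unlogged value, which damps dim signals, its difference was 0.60, below those of Fcgr3 (0.77), Csf1r (0.69), Aif1 (0.67) and Lyz2 (0.66).

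The other mice also kept an order across the genes. Among the knockout mice, knockout 2 was the lowest for 29 of the 32 genes and knockout 3 the highest for 24. Among the controls, control 2 was the lowest for all 32 and control 3 the highest for 30. For most of the genes, replicate 2 was thus the lowest and replicate 3 the highest in both groups. Relative to the mean of the 6 arrays, the median of the 32 genes was 0.19, -0.15 and 0.53 in knockout mice 1 to 3 and 0.21, -1.57 and 0.77 in control mice 1 to 3. The same medians for genes of the proximal tubule were -0.13, 0.07 and -0.08 in knockout and -0.05, 1.20 and -0.86 in control, with control 3, the mouse with the highest myeloid median, lowest. For the distal nephron genes they were -0.37, -0.44 and -0.25 in knockout and -0.54, 2.16 and -0.30 in control, with control 1 lowest. Podocyte genes ranged only from -0.19 to 0.10. Whether these shifts share a source was not tested.

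**Figure D3:**
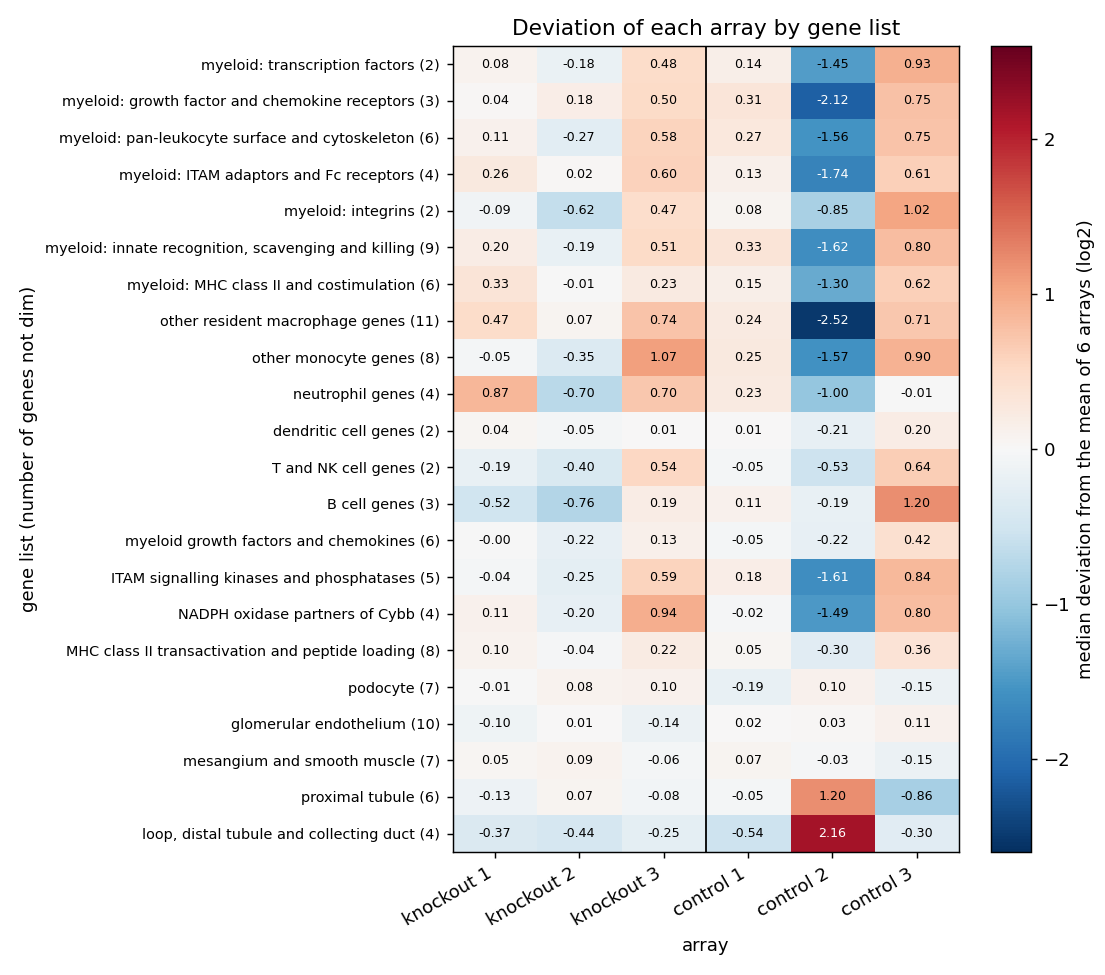
Median deviation of each array (columns) from the mean of the 6 arrays (log2, colour and printed value) for each gene list (rows), over the genes of the list that are not dim, whose number stands in parentheses. Lists of myeloid genes and of their partners are lowest on control 2, with -2.52 for other resident macrophage genes. On the same array both lists of tubule genes are highest.

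To describe the members beyond this common shift, each value was also taken relative to the median of the 32 genes on its own array. The median SD of the control mice was then 0.30 in place of 1.21, and that of the knockout mice 0.25 in place of 0.39. On this scale knockout and control did not overlap for 6 of the 32 genes. The same subtraction left 0.296% of all probe sets that are not dim without overlap, but it adds the myeloid shift to probe sets that do not carry it, so the shares cannot be read against each other. Fcgr3 (0.42), Csf1r (0.30) and Tyrobp (0.13) were higher relative to the other myeloid genes in all knockout mice, and Msr1 (-0.45), Itgax (-0.35) and Lcp1 (-0.24) were lower. The median was drawn from the same genes, so these values are a description of unequal change within the list, with no test. Cd53, Cd14, Ccr2, Mrc1 and Itgam lay high on control 2 on this scale, since their values there were closer to those of the other arrays.

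**Figure D4:**
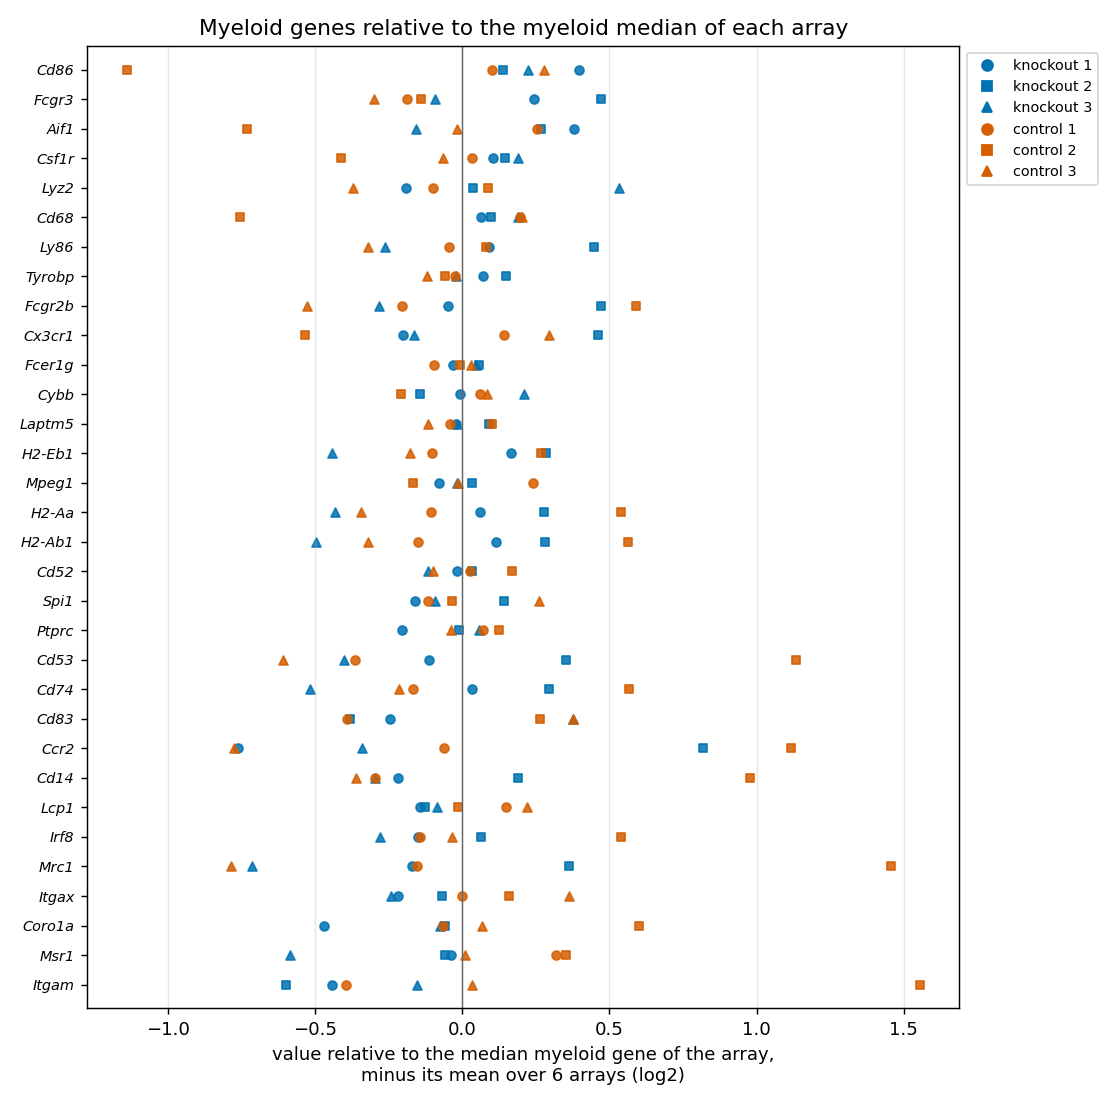
Value of each of the 32 myeloid genes relative to the median myeloid gene of its array, minus the mean of that value over the 6 arrays (log2, horizontal axis), 1 point per mouse, genes ordered by the knockout minus control difference. Blue points lie right of all orange points for Fcgr3, Csf1r and Tyrobp and left of them for Msr1, Itgax and Lcp1.

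Among genes that work with the members or mark other leukocytes, 0 of the 104 matched entries in 11 lists passed the fold and p criterion. Of all 45101 probe sets 0.18% passed it, so a count of 0 is near that share. Control 2 was the lowest array for 10 of 11 other resident macrophage genes that are not dim, but for 3 of 6 growth factors and chemokines and 4 of 8 genes of class II transactivation and peptide loading. Of 18 other genes of resident macrophages that were matched, 11 were not dim, and all 11 had a higher mean in knockout, with a median of 0.90, which was -0.03 without control 2. Complement C1qb, part of the protein that opens the classical pathway, was at 12.46, 11.77 and 12.55 in knockout and at 12.43, 9.18 and 12.46 in control. The ligands of Csf1r varied little, with a difference of -0.09 (SE 0.14) for Csf1 and 0.25 (SE 0.11) for Il34. Ccl2, the ligand of Ccr2, varied far more, with 9.32, 7.33 and 7.06 in knockout and 9.30, 3.72 and 9.71 in control. Of the genes that signal downstream of Tyrobp and Fcer1g, among them kinases and phosphatases, 5 of 10 were not dim. Of these 5, 4 had a higher and 1 a lower mean, and without control 2 this was 1 higher and 4 lower. Ptpn6, a phosphatase that restrains these signals, differed by 0.37 (SE 0.86), and by -0.42 without control 2. All 4 matched partners of Cybb in the phagocyte oxidase had a higher mean, with a median of 0.41, which was -0.13 without control 2. Of the genes of class II transactivation and peptide loading, 8 of 11 were not dim, with 6 higher and 2 lower means. Without control 2 these were 2 higher and 6 lower. Rfxank, a subunit of the factor that binds class II promoters, was the only one of these 8 without overlap and was picked for its values. Among all probe sets that are not dim, 13.7% did not overlap. Rfxank was at 6.70, 6.76 and 6.85 in knockout and 6.54, 6.69 and 6.53 in control, a difference of 0.19 (SE 0.06, adjusted p = 1 with limma). Ciita was dim, at 3.18 to 3.75, so that its level cannot be followed here. Of 8 matched monocyte genes, 6 had a higher and 2 a lower mean, with a median of 0.45, which was -0.35 without control 2.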

How the data were processed

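The authors normalized the arrays with GCRMA (version 2.30.0 per the labels), and the deposited values are log2 signals of 45101 probe sets, not counts. Of these, 34958 probe sets name 1 gene and were used to stand for genes, 932 name several and 9211 were paired with no gene (platform annotation, with symbols updated through RefSeq where needed). Knockout and control were compared with limma (lmFit and eBayes, version 3.58.1 in R 4.3.3). The two-sided test took in every probe set without filter or covariate, and p values were adjusted by Benjamini-Hochberg over all of them. SAM, which the methods name, was rewritten in R after its description and run as an alternative. The procedure was also run on simulated data with independent noise for each probe set and known differences added to some. Those data hold no shift shared by many genes of an array, such as that of control 2. The members and gene lists were chosen with earlier results of these data known. Named in full were the 8 members with the largest difference that are not dim, the member with the highest mean in each role, Ptprc, Csf1r, Spi1, Tyrobp and Fcer1g, and members marked as picked after their values were seen. H2-Aa, H2-Eb1, Fcgr2b, Cx3cr1, Ccr2, Il34, Ciita and Cd3e were added for their roles. Labels call the arrays biological replicates, 1 mouse each. The precision is limited by the number of arrays, as they give no counts.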

Additional observations from a re-analysis of the deposited data

How the results depend on the processing

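Under each tested alternative that keeps all 6 arrays, 0 of the 32 genes (31 with the filter at log2 6, which drops Itgam) passed the fold and p criterion and 0 an adjusted p of 0.05. With 1 array left out, 0 to 1 passed the criterion (Msr1, without control 2) and 0 to 0 the adjusted p. The groups did not overlap for 0 to 3 genes, with 3 without control 3 (Cd53, Fcgr3 and Fcgr2b, higher in knockout) and 1 each without knockout 1 (Ccr2, higher), knockout 3 (Itgam, lower) and control 2 (Msr1, lower). Among all probe sets that are not dim, 20.1% to 32.1% did not overlap with 1 array left out, 23.9% without control 3. The median difference ranged from -0.28 without control 2 to 0.82 without control 3. Relative to the median myeloid gene of each array, where no test was run, the groups did not overlap for 6 genes and the median was -0.0633. The share over all probe sets that are not dim, 0.296% on that scale, cannot be read against this count, as said above. A median close to 0 follows from subtracting the median of the same genes. Array weights, which gave control 2 a weight of 0.404, lowered the median to 0.09 and turned Irf8 (-0.0605), Ptprc (-0.0384), Coro1a (-0.22), Lcp1 (-0.21), Itgax (-0.26), Mrc1 (-0.0011) and Mpeg1 (-0.0584). The ratio of unlogged means gave a median of 0.13 and turned Spi1 (-0.0323), Irf8 (-0.0162), Cx3cr1 (-0.0547), Coro1a (-0.14), Lcp1 (-0.16) and Itgax (-0.29), and a second quantile normalization turned Coro1a (-0.0129). The cause was not tested.

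With 1 array left out, the differences that turned ranged as follows: Spi1 -0.45 to 0.96, Irf8 -0.37 to 0.60, Csf1r -0.18 to 1.26, Cx3cr1 -0.53 to 1.15, Ccr2 -0.0179 to 0.54, Ptprc -0.41 to 0.77, Cd52 -0.34 to 0.79, Laptm5 -0.25 to 0.91, Coro1a -0.54 to 0.45, Lcp1 -0.64 to 0.74, Tyrobp -0.20 to 1.03, Fcer1g -0.29 to 0.997, Itgax -0.70 to 0.67, Cd14 -0.12 to 0.47, Ly86 -0.0665 to 0.996, Msr1 -0.73 to 0.36, Mrc1 -0.0458 to 0.14, Cd68 -0.42 to 1.32, Mpeg1 -0.48 to 0.86, Cybb -0.39 to 1.01, Aif1 -0.30 to 1.32, Cd74 -0.21 to 0.66, H2-Aa -0.15 to 0.67, H2-Ab1 -0.14 to 0.68, H2-Eb1 -0.20 to 0.84, Cd83 -0.42 to 0.90 and Cd86 -0.28 to 1.69.

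Replicate numbers are shared by knockout and control arrays, and the main fit did not treat them as pairs. The deviations of arrays with the same number correlated at 0.095, 0.352 and 0.248, against -0.322 to 0.094 for unlike numbers. Each array correlated best with its own number, but control 1 correlated nearly as well with knockout 3 (0.094) as with knockout 1 (0.095). Deviations from the mean of a group sum to 0, so these correlations are not independent of each other. Whether arrays with the same number share a source was not tested. With the replicate number as a block, 0 members passed the criterion and the median difference was 0.35, while 64 probe sets of the whole array passed in place of 81. Over the whole array, the criterion was passed by 140 probe sets without control 2, 141 with a filter on range, 54 with an offset of 16 and 14 with a fold over 2, and by 33 genes with the probe sets of a gene averaged. With 3 mice a group, only large and even differences could be told from the spread, and values near log2 4 lie close to background.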

Other observations

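Over all 18194 genes, 43% were dim by their brightest probe set. Of 10 matched genes of T and NK cells, 8 were dim, and Cd3e, a chain of the T cell receptor complex, was at 2.203 on all arrays. All 6 mast cell genes and 7 of 9 dendritic cell genes were dim. Of 9 matched neutrophil genes, 4 were not dim. S100a8, a calgranulin of neutrophils, was at 10.43, 8.14 and 9.81 in knockout and at 9.58, 7.42 and 8.75 in control, with the groups overlapping and a difference of 0.88 (SE 0.90). Its highest mouse was knockout 1, whereas most myeloid genes were highest in control 3.

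Genes of B cells were not lowest on control 2. Of 7 matched genes, 3 were not dim, and 0 of these 3 had their lowest value on that array. Cd79b, a signalling chain of the B cell receptor, was at 4.94, 4.90 and 5.35 in knockout and at 5.58, 5.35 and 6.67 in control, a difference of -0.80 (SE 0.42). It was picked among the 3 for its values. All knockout mice lay below all control mice, knockout 3 by less than 0.001 below control 2, and the adjusted p was 1 with limma. Groups were apart in 13.7% of all probe sets that are not dim.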
